A study of Mus musculus with 6 samples.

Results

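The subject is a stretch of mouse chromosome 1 between positions 80000000 and 106000000 of the GRCm38 genome build, in which many CpG positions were listed in all 3 Tet2 KO libraries and in no Tet2 WT library. All CpG positions listed in any library were taken, 16546 in the segment out of 2029165 in the whole series. The deposited tables list positions with at least 10 reads, of which at most 10% are of a base other than C or T. A position that is not listed may still have had fewer than 10 reads, or more reads with over 10% of another base. They were sorted into 436 KO-only positions, listed in all 3 KO libraries and no WT library, 21 WT-only positions with the reverse pattern, and 11441 shared positions listed in all 6. The segment was chosen by the listing of positions in the KO and WT libraries, so the KO-only count is a description without a test. Methylation of cytosines in genomic DNA was read by enhanced reduced representation bisulfite sequencing (ERRBS). The tested libraries came from 3 samples of splenic germinal centre B cells whose genotype is labelled TET2 Knock-Out, and the others from 3 samples of the same cell type whose genotype is labelled TET2 Wild-Type. Both groups carry the strain label C57BL/6. The labels give no age, no allele design, no promoter or Cre driver and no origin of the replicates, so every p-value below rests on the variation among these 6 libraries, and part of that may be technical.

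Tet2 is a dioxygenase that oxidises 5-methylcytosine as a step towards its removal, and germinal centres are the sites in lymphoid organs where B cells divide, mutate their antibody genes and are selected. In ERRBS the DNA is cut by MspI at CCGG, fragments of chosen sizes are treated with bisulfite, and the cytosines near their ends are read. A position is therefore listed only where a fragment of suitable size was made, sequenced and aligned. Methylated cytosines of CpGs are usual in gene bodies and between genes, while CpG-dense gene starts are usually unmethylated in all tissues. Bisulfite reads 5-methylcytosine and 5-hydroxymethylcytosine alike, and a level in bulk DNA cannot tell how many cells carried the mark from how many copies in each cell did.

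The KO libraries held 180397494 to 195582108 reads over CpGs and the WT libraries held 174375503 to 203863392. Within the Tet2 gene body on chromosome 3, 108 positions were shared, 0 were KO-only and 6 were WT-only. The 6 WT-only positions of Tet2 lay between 133486189 and 133486297, and the first of them was listed in no KO library, against 168, 114 and 75 reads in WT replicates 1, 2 and 3. Of the marker genes of B and germinal centre B cells, only Cd22, Pax5, Bcl6 and S1pr2 had at least 3 shared CpGs within 1 kb of a start, with KO means of 0% to 3.71% and WT means of 0.121% to 2.91%. None of the 6 T-cell markers had such CpGs, and Klf1 (erythroid), Kdr (endothelium) and Csf3r (myeloid) were also low, at KO means of 0.532%, 3.15% and 10.2% and WT means of 0.449%, 3.12% and 10.6%, so these levels do not tell the cell types apart.

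The pattern could be seen base by base just before 3 gene starts. Of the 6 RefSeq promoter windows of GRCm38.p6 with KO-only positions, these 3 held the most, 5 in Traf3ip1 and 4 each in Scly and Arl4c, against 3 in Cntnap5b, 2 in Glrp1 and 1 in Ing5. The runs are given 5' to 3' on the strand of each gene, ending at the last base before the gene, and capitals mark CCGG, the recognition site of MspI, which reads the same on both strands.
Scly, chr1:91298088-91298294, forward strand: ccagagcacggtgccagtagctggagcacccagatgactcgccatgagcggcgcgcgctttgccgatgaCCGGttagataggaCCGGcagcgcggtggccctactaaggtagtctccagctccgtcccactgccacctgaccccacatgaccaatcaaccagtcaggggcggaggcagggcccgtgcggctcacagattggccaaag
Traf3ip1, chr1:91494418-91494589, forward strand: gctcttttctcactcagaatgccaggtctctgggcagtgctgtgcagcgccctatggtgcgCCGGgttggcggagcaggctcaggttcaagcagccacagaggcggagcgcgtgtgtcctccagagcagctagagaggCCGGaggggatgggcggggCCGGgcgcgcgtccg
Arl4c, chr1:88702192-88702441, reverse strand: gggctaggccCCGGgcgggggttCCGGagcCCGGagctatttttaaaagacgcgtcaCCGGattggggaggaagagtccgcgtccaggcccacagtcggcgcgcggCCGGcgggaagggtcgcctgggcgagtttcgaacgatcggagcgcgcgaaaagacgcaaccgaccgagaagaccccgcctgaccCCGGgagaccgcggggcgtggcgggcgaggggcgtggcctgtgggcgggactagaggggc
CCGG was present in 51.5% of the 291 promoter windows of 300 bases overlapping the segment, in 51.7% of the 1723 windows elsewhere on chromosome 1 and in 52.8% of all 32851 windows. A match is a description of the sequence and does not show that the enzyme cut there.

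Before Scly, which encodes selenocysteine lyase, 4 forward-strand CpGs at bases 85, 91, 93 and 123 of the printed run were KO-only. The first of them had 70, 57 and 54 reads in KO replicates 1, 2 and 3 and was listed in no WT library. Upstream in the same run, 7 reverse-strand positions were shared, and the first had 226, 237 and 226 reads in the KO libraries, against 129, 167 and 282 in the WT libraries. These 7 lay at bases 41 to 72, so the strands were not compared over the same bases. Before Traf3ip1, which encodes a subunit of the transport machinery of cilia, 5 forward-strand CpGs at bases 63, 71, 104, 109 and 111 were KO-only. The first had 147, 143 and 88 reads in the KO libraries and was listed in no WT library, while 13 other positions of the run were shared. All 5 were unmethylated in the 3 KO libraries. Before Arl4c, which encodes a small GTPase of the Arf family, the run held 2 KO-only positions at bases 236 and 237 and 2 WT-only positions at bases 201 and 203, among 45 shared positions.

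**Figure D1:**
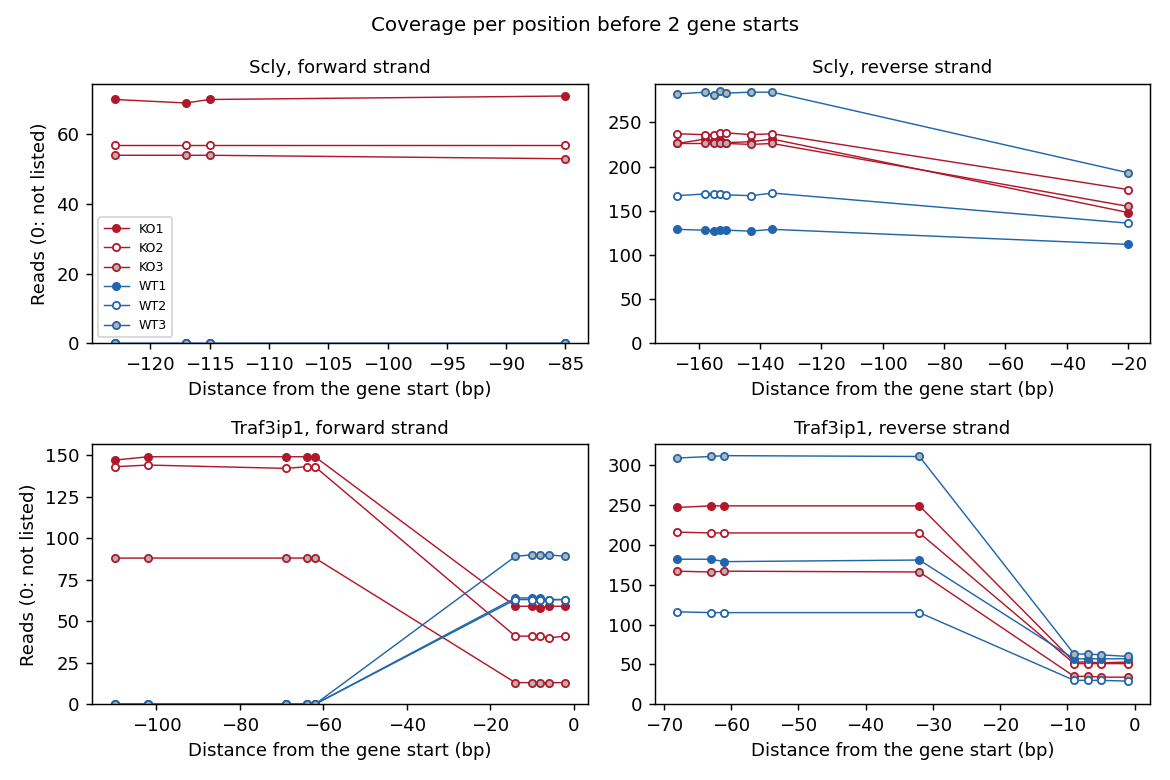
Reads at each listed CpG (y axis, linear from 0) against distance from the gene start in bp (x axis) before Scly and Traf3ip1, by strand, with KO libraries in red and WT libraries in blue. The 4 Scly and 5 Traf3ip1 forward-strand positions listed in KO libraries alone stand at 0 in WT, where 0 means not listed. The listed reverse-strand positions, which in Scly lie at other bases, were read in all 6 libraries.

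Along the segment, KO-only positions made up 2.64% of the listed positions, against 0.0878% (91 of 103630) in the rest of chromosome 1. Over the whole series the share was 0.0857%, and since this contrast chose the segment nothing is read from the difference. WT-only positions made up 0.127% of listed positions in the segment and 0.0975% (101 of 103630) in the rest of chromosome 1, against 0.0897% in the whole series, a share near the background. Positions listed in 1 KO library and no WT library made up 4.60% in the segment and 4.64% in the rest of chromosome 1, and those in 1 WT library and no KO library 15.5% and 15.4%. Listings in a single library were thus about as frequent in the segment as in the rest of the chromosome.

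The KO-only positions were spread over the segment and uneven within it. Of the 26 windows of 1 Mb, 21 held at least 1 KO-only position, 17 held 10 or more and 5 held 0. Elsewhere on the autosomes, 4 of 2386 such windows held 10 or more, with 12 as the highest count. The highest rates, 27.4 and 25.2 per 100 listed positions, were in the windows that start at 99 and 100 Mb, which had only 73 and 123 listed positions. The highest count, 55, was in the window that starts at 91 Mb, among 1812 listed positions. In the window that starts at 92 Mb there were 0 KO-only positions among 1290 listed.

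Few KO-only positions lay just outside the edges. The first KO-only position of the segment was 80172836 and the last 105881834. The nearest one before lay 1596868 bp away, with 3 KO-only positions in the 5 Mb before the segment among 4441 listed. The nearest one after lay 15502525 bp away, with 0 in the 5 Mb after it among 1190 listed. Inside, the longest stretch with no KO-only position ran from 82173945 to 85793641 and held 1649 listed positions.

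**Figure D2:**
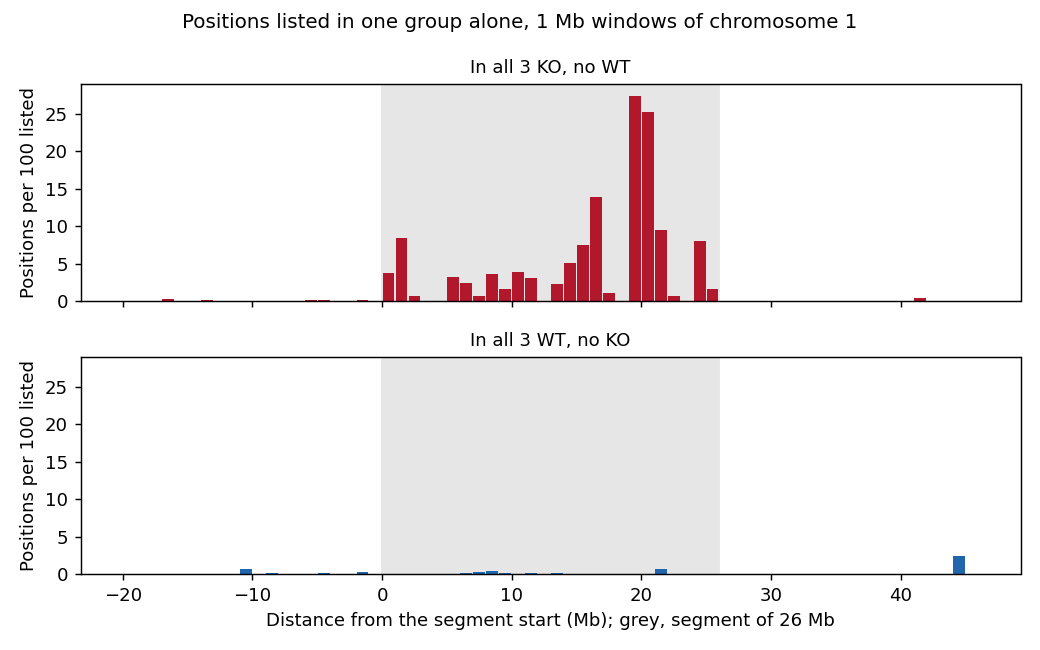
KO-only positions (upper panel) and WT-only positions (lower panel) per 100 listed positions in 1 Mb windows (y axes), against distance from the segment start in Mb (x axis), with the segment in grey. KO-only rates reach 27.4 inside the grey area and stay near 0 on both sides, and WT-only rates are low throughout.

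KO-only positions were read at moderate depth in the KO libraries. Their median coverage was 44, 46 and 48 reads in KO replicates 1, 2 and 3. Shared positions of the segment had medians of 114, 108 and 107 reads in the KO libraries, and of 108, 98 and 118 in the WT libraries. KO-only positions elsewhere on chromosome 1 had medians of 14, 18 and 13 reads, close to the minimum of 10. The KO-only positions of the segment were therefore deeper than those outside it and shallower than the shared ones in all 3 KO libraries.

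The lower depth was also seen against near neighbours and where few positions were listed nearby. At the 211 KO-only positions with a shared position within 300 bp, the median ratio of coverage to those neighbours was 0.474, 0.532 and 0.544 in KO replicates 1, 2 and 3. Among positions with at most 10 listed positions within 250 bp, the 307 KO-only ones had median coverages of 40, 42 and 44 reads, and the 4041 shared ones had 94, 88 and 93 in the same libraries. Depth in the KO libraries was thus lower at KO-only than at shared positions in both comparisons.

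Few of the 436 sat at the coverage limit. The lowest KO coverage was 10 to 12 reads at 41 of them, 20 or more at 327 and 50 or more at 121. Just outside the rule, 71 positions were listed in 3 KO and 1 WT library, with a median of 14 reads in that WT library and 20 or more at 19 of them. They made up 0.429% of listed positions, against 0.332% in the rest of chromosome 1. Another 68 were listed in 2 KO libraries and no WT library, or 0.411% against 0.239%. Both patterns are close to the rule that chose the segment, so these shares are a description. With 20 reads required in all KO libraries and no listing in WT, 327 positions were left.

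**Figure D3:**
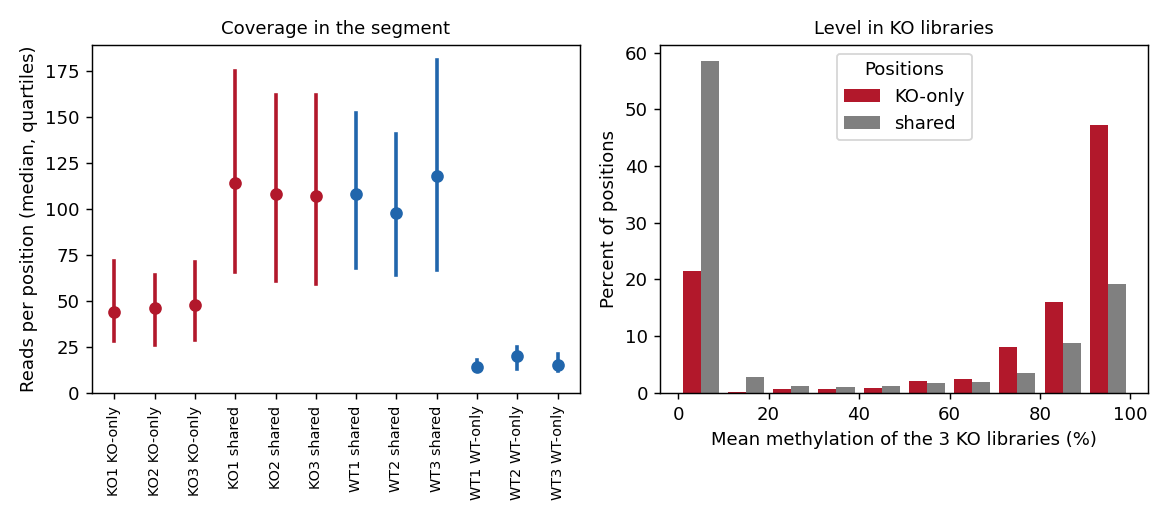
Left, reads per position (y axis, median as point, quartiles as line) by library and class in the segment. KO-only medians lie at 44 to 48, below the shared medians of 98 to 118. Right, percent of positions (y axis) in 10-point bins of the mean KO methylation level (x axis), where KO-only positions fill mostly the top bins and shared positions the lowest.

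KO-only positions were mostly methylated. Their mean level was 68.0%, 69.7% and 68.5% in KO replicates 1, 2 and 3, against 33.0%, 33.0% and 32.9% at shared positions in the same libraries. Of the 436, 276 had a KO mean over 80%, 95 had one under 20% and 65 lay between. The levels followed where the positions lay. The 79 KO-only positions within 1 kb of a RefSeq start averaged 1.38%, and the 5234 shared ones 2.84%. The 357 farther away averaged 83.6%, and the 6207 shared ones 58.3%. The gap was smaller among positions with at most 10 listed positions within 250 bp. There, KO-only positions averaged 84.5%, 86.3% and 85.4% in KO replicates 1, 2 and 3, and shared ones 76.2%, 76.5% and 76.0%. Across the 436 positions, the levels of pairs of KO libraries correlated at Pearson r of 0.911 to 0.955, given as a description of positions that share libraries and fragments.

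KO-only positions lay farther from genes than shared ones. A protein-coding gene body held 48.2% of them, against 70.2% of shared positions. Their median distance to the nearest RefSeq start was 45368 bp, against 2320 bp for shared positions. A median of 6 listed positions lay within 250 bp of a KO-only position, against 27 around a shared one. The strands were even, with 217 on the forward and 219 on the reverse strand. The partner cytosine on the other strand of the same CpG was unlisted in all libraries for 321, also KO-only for 52, shared for 41 and listed in some other way for 22. Of the 436, 7 had same-strand WT-listed positions on both sides within 50 bp, and the rest had such a WT-listed position on at most 1 side.

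Joined where neighbours were at most 300 bp apart, the KO-only positions formed 139 clusters. A single position made up 39 of them, 31 had 5 or more and together held 221 positions, and the median distance between neighbouring clusters was 70348 bp. The 100 clusters of 2 or more spanned a median of 50 bp and at most 464 bp, and 49 of them lay on 1 strand. Of the 139, 63 lay in a gene, in 33 genes in all, 15 lay within 1 kb of a start, and 55 were over 5 kb from any shared position. Exons and introns were not analysed here.

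Lrrfip1, whose product binds the actin regulator Flightless, held the most, 39 KO-only positions beside 196 shared ones in its body at 90996930 to 91128944. Its largest cluster, of 18 positions from 91017332 to 91017795, was methylated to 63.1%, 85.5% and 59.1% in KO replicates 1, 2 and 3, at median coverages of 56, 60 and 74 reads. A second Lrrfip1 cluster of 11 positions, 203 bp from a start, was near 0 at 0.249%, 0.928% and 0.141%. High and low clusters thus occurred within 1 gene, and the low one was beside a start.

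Clusters of low methylation recurred at gene starts. In Cab39, which encodes a scaffold of the LKB1 kinase complex, 11 reverse-strand positions from 85793641 to 85793678 were at 0% in all 3 KO libraries, with median coverages of 50, 49 and 40 reads. In Atg4b, which encodes a protease of autophagy, 10 positions from 93755120 averaged 0.108%, with 26, 33 and 31 reads, and because Thap4 starts next to it the same 10 lie within 1 kb of both genes. In Bok, a member of the BCL2 family, 9 positions from 93686252 averaged 0.420%, with 131, 67 and 116 reads. Each of these 3 clusters had a shared position at the neighbouring base. Clusters near starts of Armc9, a gene of cilia, and of Dgkd, each of 5 positions, averaged 0.306% and 0.217%, and one of 6 positions near a start of Ramp1 averaged 5.75%. Low levels were not limited to starts, since 7 positions 14427 bp from Tex44 were at 0% in all 3 KO libraries and 5 positions in Agap1 from 89581626 averaged 4.50% at 126815 bp from a start.

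Most clusters far from starts were highly methylated. Of the 124 more than 1 kb from a start, 104 had a KO mean over 80%, 16 lay between 20% and 80%, and 4 were under 20%. In Dock10, a gene expressed in lymphocytes, 8 positions from 80586773 averaged 93.3% ± 2.01 (SD over 3 KO libraries), with 38.5, 36.5 and 47.5 reads. Between genes, a cluster of 9 positions 228005 bp from St8sia4, a polysialyltransferase gene, averaged 95.8% ± 1.34, and a cluster of 9 positions 481865 bp from Slco4c1, an organic anion transporter gene, averaged 93.0% ± 5.30. A cluster of 10 positions 496088 bp from Cntnap5b, a neurexin-family gene, averaged 92.4% ± 3.16. Cntnap5b itself held 19 KO-only positions and only 8 shared ones in its body at 99772246 to 100490599. Counted within each gene or 1 kb of it, Lrrfip1 with 39 was followed by Agap1 with 20, Cntnap5b with 19, Armc9 with 13, Dock10 with 12, Cab39 with 11, Atg4b and Thap4 with 10 each, Bok with 9, and Gpr55, Sh3bp4 and Traf3ip1 with 7 each.

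By gene list, 5 of 14 B-cell and immune genes held KO-only positions in their bodies, 33 positions in all. Over all 171 protein-coding genes of the segment, 33 genes held any. Those of the B-cell and immune list included Dock10 with 12, Gpr55, a lipid receptor gene, with 7, and Dgkd, a diacylglycerol kinase gene, with 6. The others of that list were Ramp1, a receptor subunit gene, with 6, and Inpp5d, which encodes the phosphatase SHIP, with 2. Of 14 housekeeping genes, Cab39 held 11 and Psmd1, a proteasome subunit gene, held 1. Of the 15 neural, muscle and matrix genes found in the segment, 5 held 26, of which Cntnap5b had 19. The 9 regulators, among them Hdac4 and Per2, and the 8 gut and liver enzyme genes held 0. Ackr3, Pdcd1, Sp100, Sp110 and Sp140 also held 0.

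The 21 WT-only positions were few, shallow and scattered. They formed 14 clusters of 1 or 2 positions, and their median coverage was 14, 20 and 15 reads in WT replicates 1, 2 and 3. The 7 clusters of 2 positions lay in Hjurp, Agxt and LOC102637806, 48 bp from Arl4c and, farther away, nearest Prss56, Chrng and Twist2. With at least 20 reads in all WT libraries and no listing in KO, 0 were left, while 41 were found when the minimum for listing was set to 20 in every library.

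At shared positions the segment resembled the rest of chromosome 1 in its mean. Shared positions of the segment averaged 33.0%, 33.0% and 32.9% in KO replicates 1, 2 and 3, and 32.0%, 32.5% and 32.5% in WT replicates 1, 2 and 3. The groups did not overlap, at 32.9% ± 0.0722 in KO and 32.3% ± 0.321 in WT (SD, n = 3 each), a difference of 0.608 points with p = 0.1 in an exact two-sided permutation test, the smallest p that 3 libraries against 3 allow. The difference was 1.54 points over positions with a mean level of 5% to 95% (exact p = 0.1), 0.956 points with reads pooled over positions (exact p = 0.7) and 0.421 points without WT replicate 1. In the rest of chromosome 1 the levels were 34.0% ± 0.199 in KO and 33.3% ± 0.357 in WT, a difference of 0.699 points with the same exact p = 0.1 (n = 3 each). Single differences had an SD of 6.06 points over positions in the segment and 5.68 in the rest of the chromosome. The median log2 ratio of KO to WT coverage was -0.02 in the segment and -0.00 in the rest, and reads of another base made up 0.0127% in KO and 0.0132% in WT libraries at shared positions of the segment.

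The ends of the distribution are given as counts without a test. Positions more than 40 points higher in KO made up 0.157% of shared positions (18 of 11441) in the segment and 0.0717% (53 of 73934) in the rest of chromosome 1. More than 40 points lower in KO were 2 positions in the segment, or 0.0175%, and 3 in the rest, or 0.00406%. At a cut of 10 points, 5.15% were higher in KO in the segment and 5.44% in the rest. At the same cut, 3.38% were lower in KO in the segment and 2.57% in the rest. No shared position of the segment was at 80% or more in all libraries of one group and at 20% or less in all of the other.

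A class of positions had intermediate levels in KO and levels near 0 in WT. A T in the DNA and a converted C read alike here, and the DNA sequence of the libraries was not analysed, so a level near 0 cannot tell an unmethylated cytosine from a missing one. It was defined after its values were seen, as at least 20% in all 3 KO libraries and at most 5% in all 3 WT libraries, and gets no test as a class. It held 16 of 11441 shared positions of the segment, 3 of 73934 in the rest of chromosome 1 and 46 of 1348044 on the other autosomes. The share over all shared positions was 0.00451%. The reverse class, low in KO and intermediate in WT, held 0, 0 and 4.

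The 16 positions lay between 85862281 and 94248419, 9 of them in genes. Their KO means ran from 35.6% to 67.6% with a median of 49.7%, and their highest WT mean was 0.433%. In Lrrfip1, which held 5, the reverse-strand cytosine at 91032632 was at 62.2%, 82.3% and 58.2% in KO replicates 1, 2 and 3, against 0% in each WT library, over 82, 62 and 67 reads in KO and 67, 188 and 130 in WT. Its forward-strand partner at 91032631 was at 59.0%, 71.0% and 59.7% in KO, against 0% in each WT library. Every KO value was far above every WT value on both strands of that CpG. At 88668680, 29545 bp from Arl4c, the level was 50%, 52.9% and 50.8% in KO, against 0% in each WT library over 133, 405 and 102 reads. In Col6a3, which encodes a chain of type VI collagen, 90833366 was at 66.3%, 44.5% and 57.0% in KO, against 0% in WT. Others lay in Agap1, Ramp1 and Sned1 and nearest Cab39, 2810459M11Rik, Sh3bp4 and Pdcd1, the gene of an inhibitory T-cell receptor.

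The surroundings of the 16 were methylated in both groups. Shared positions within 100 bp averaged 70.2% to 99.05% in KO and 70.0% to 100% in WT around each of them. For some of the 16 this rests on 1 shared position. In Agap1, for example, the position at 89539155 was at 62.1%, 42.9% and 54.0% in KO, against 0% in WT, and its neighbour averaged 96.6% in KO and 95.4% in WT. The 3 positions of the class elsewhere on chromosome 1 lay among low neighbours. These averaged 8.17% in KO and 7.92% in WT in Unc80, 8.71% and 3.77% in Shisa4, and 5.16% and 2.23% near Ppp2r5a. The Unc80 and Shisa4 positions lay 461 and 340 bp from a start, where levels are usually low. Neighbours of the class on the other autosomes were not examined, so the surroundings are not shown to be particular to the segment. Among the 16, the partner on the other strand was unlisted for 11, in the class for 4 and listed in some libraries for 1. The median distance from the 16 to the nearest KO-only position was 5339 bp.

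**Figure D4:**
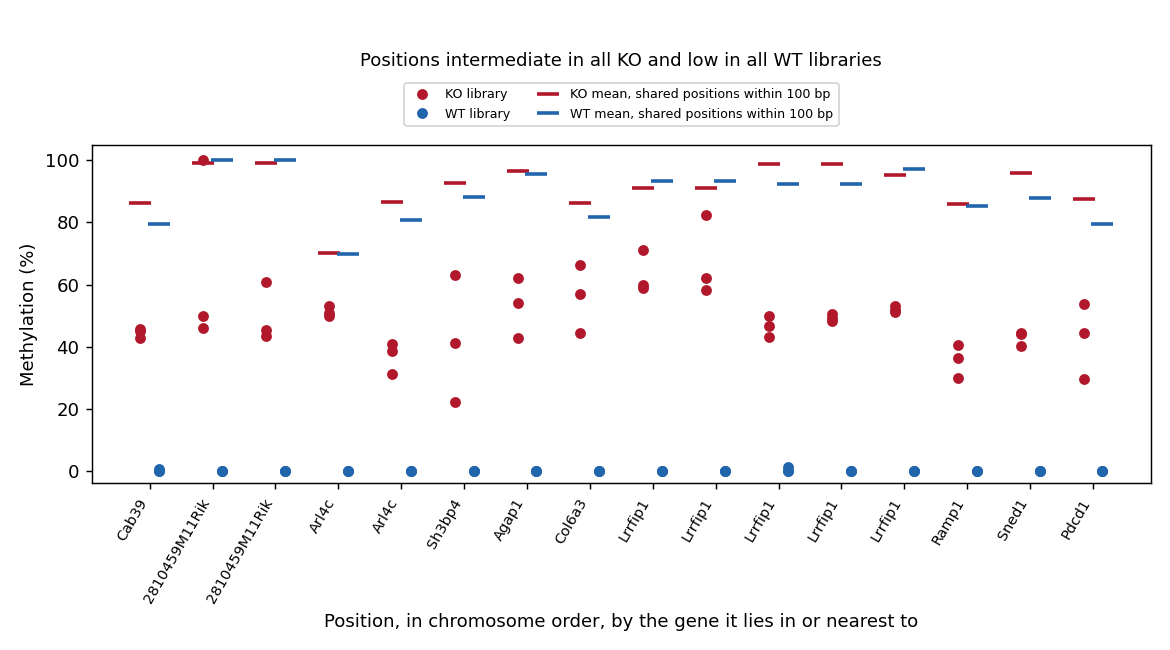
Methylation in percent (y axis) of the 16 positions, by gene in or nearest to which each lies (x axis, chromosome order), with KO libraries as red points left of WT libraries as blue points. KO libraries span 22.2% to 100%, WT libraries lie at 0% to 1.30%, and dashes show that shared neighbours within 100 bp averaged 70.0% to 100% in both groups.

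Single CpGs were tested with a quasi-binomial model over all chromosomes. In the segment, 23 of 4128 tested CpGs were higher in KO, or 0.557%, against 0.284% of the 525213 CpGs tested in the whole series, and 2 were lower, or 0.0484%, against 0.0105%. The same libraries chose the segment, so these shares are a description. Of the 23, 15 belonged to the class above and 18 had a WT mean under 1%. In all 25 the groups did not overlap, which the selection by call favours, so it adds no support to the calls. The 23 became 3 without moderated dispersion and 0 with limma on log2 ratios or without the filter on mean level, and the 2 became 0 in all 3 of these. Leaving out a library kept 15, 16 and 14 of the 25 calls without KO replicates 1, 2 and 3, and 14, 23 and 23 without WT replicates 1, 2 and 3. At Lrrfip1 91032632 the difference was 67.6 points (limma-moderated quasi-binomial test, adjusted p = 6.46e-07), and at Arl4c 88668680 it was 51.3 points (adjusted p = 4.64e-08), and both stayed called without any 1 library. The first was lost without moderated dispersion (adjusted p = 0.268), with limma on log2 ratios (0.610) and without the filter on mean level (0.217). The second was lost with limma (adjusted p = 0.610) and without that filter (0.0587).

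The 2 CpGs that were lower in KO lay in or near 2 genes of the segment. In Glrp1, which encodes a glutamine-repeat protein, 88510181 was at 55.2%, 55.2% and 53.1% in KO replicates 1, 2 and 3, against 98.4%, 85.5% and 100% in WT. It fell by 40.2 points (limma-moderated quasi-binomial test, adjusted p = 0.0265), and the call was lost without any KO library (adjusted p of 0.0898 to 0.0978) and without WT replicate 1 (0.148) or 3 (0.0638). Before Scly, 91298035 was at 8.02%, 9.45% and 3.50% in KO, against 13.3%, 45.1% and 34.2% in WT. It fell by 23.9 points (limma-moderated quasi-binomial test, adjusted p = 0.0139), and the call was lost without KO replicate 1 (0.0512) or 3 (0.108) or WT replicate 2 (0.0557).

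Reads were also added over tiles of 1 kb. Of 676 tested tiles of the segment, 4 were higher in KO, or 0.592%, against 0.685% of all 83114 tiles, and 0 were lower, against 0.00241%. At an unadjusted p under 0.05, 78 tiles passed, or 11.54%, against 11.50% of all tiles. The share higher in KO was near the background. The tile 1289 bp from Ptma, the prothymosin alpha gene, was at 25.7%, 26.8% and 22.9% in KO replicates 1, 2 and 3, against 7.86%, 5.83% and 9.85% in WT. It rose by 17.3 points (limma-moderated quasi-binomial test, adjusted p = 0.00451), and stayed called without any 1 library. All 4 tiles lost their calls without moderated dispersion and with limma on log2 ratios, where this one had adjusted p = 0.402 and 0.373. The tile 980 bp from Ackr3, which encodes a scavenging receptor for a chemokine, was at 27.9%, 25.5% and 23.3% in KO, against 14.4%, 14.6% and 16.4% in WT. It rose by 10.4 points (limma-moderated quasi-binomial test, adjusted p = 0.0137), and was lost without KO replicate 1 (0.0757) or 2 (0.0707).

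The other called tiles were lost without more of the libraries. In Sp100, which encodes a protein of nuclear bodies, a tile of 3 CpGs was at 88.0%, 85.9% and 86.0% in KO replicates 1, 2 and 3, against 39.2%, 67.1% and 65.9% in WT. It rose by 29.2 points (limma-moderated quasi-binomial test, adjusted p = 0.0415), which was lost without any KO library (0.149 to 0.169), and without WT replicate 1 the difference was 20.1 points (0.0446). A tile 147914 bp from Sh3bp4, an endocytic adaptor gene, was at 33.9%, 25.9% and 30.7% in KO, against 18.4%, 20.7% and 17.5% in WT. It rose by 11.3 points (limma-moderated quasi-binomial test, adjusted p = 0.0330), but it holds 1 position of the class above, and without such positions the difference was 9.93 points (0.0717). It was also lost without KO replicate 1 (0.165) or 3 (0.146) or WT replicate 1 (0.0914) or 3 (0.0627).

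**Figure D5:**
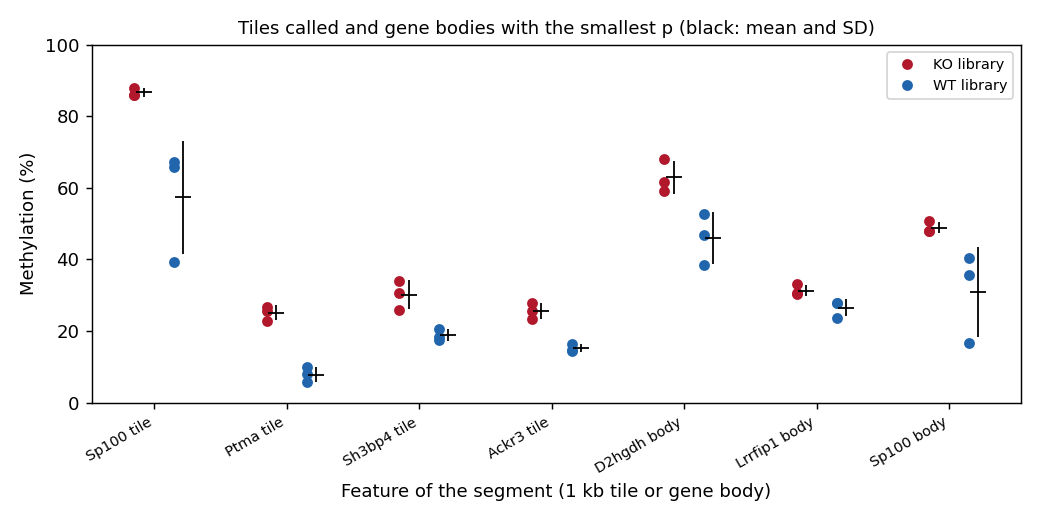
Methylation in percent (y axis) per library, KO in red left of WT in blue, with the mean and SD in black, for the 4 tiles called and the 3 gene bodies higher in KO with the smallest p (x axis). Groups do not overlap in any of the 7, which the choice by call or smallest p favours, and no gene body passed the test.

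No gene body of the segment passed. Of 107 tested, 0 were called in either direction, against 0.0169% of 11852 in the whole series (0.00844% higher in KO and 0.00844% lower). An unadjusted p under 0.05 was found for 7, or 6.54%, below the 11.8% of all gene bodies tested. The body of D2hgdh, a mitochondrial hydroxyglutarate dehydrogenase gene, was at 59.2%, 61.5% and 68.0% in KO replicates 1, 2 and 3, against 38.4%, 46.8% and 52.7% in WT, a difference of 16.9 points (limma-moderated quasi-binomial test, adjusted p = 0.242). Lrrfip1 was at 30.5%, 33.0% and 30.3% in KO and 27.9%, 27.9% and 23.7% in WT, a difference of 4.76 points (limma-moderated quasi-binomial test, adjusted p = 0.266). Sp100 differed by 17.9 points and had the third smallest p on the higher side. The lower side had Glrp1, Slco6d1 and B3gnt7 with differences of -13.3, -4.50 and -2.74 points and adjusted p from 0.452 to 0.488 (limma-moderated quasi-binomial test).

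Most gene starts were low in both groups. Of the 96 genes with at least 3 shared CpGs within 1 kb of a start, 80 were under 10% in both groups, 8 were at 60% or more in both, and the median was 0.677% in KO and 0.587% in WT. Only Spata3, at 92.0% in KO and 81.7% in WT, and Prss56, at 42.7% in KO and 30.03% in WT, were more than 10 points apart, each on 3 CpGs. The libraries of the groups overlapped at Prss56, with 57.1%, 31.4% and 39.7% in KO, against 16.7%, 29.5% and 43.9% in WT. The starts of genes with many KO-only positions were low, with Lrrfip1 at 0.508% in KO and 0.695% in WT, Dock10 at 0.476% and 0.452%, and Cab39 at 0.270% and 0.125%. All 14 housekeeping genes with starts, among them Ncl and Ptma, were under 10% in both groups. Of the 8 regulators with a start level, all were under 10%, the highest being Twist2 at 8.67% in KO and 8.57% in WT and Gbx2 at 8.42% in KO and 7.08% in WT. The 2 gut and liver enzyme genes with a start level were methylated, Alppl2 at 93.3% in KO and 89.8% in WT and Agxt at 82.9% and 82.8%.

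At MspI sites inside the promoter windows of the segment, the total of cut positions listed per library was similar in both groups. Of 634 cut positions, 2 per site, 49.1%, 48.7% and 47.6% were listed in KO replicates 1, 2 and 3, and 47.6%, 48.7% and 48.1% in WT replicates 1, 2 and 3. Similar totals do not show that the same positions were listed. Of the 634, 6 were KO-only, 0 WT-only and 283 shared. In the rest of chromosome 1, 3 of 4062 were KO-only, a smaller share than in the segment, and 1 was WT-only. KO-only listing chose the segment, so nothing is read from that difference.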

How the data were processed

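ERRBS libraries from 3 Tet2 KO and 3 Tet2 WT samples were used. The authors deposited 1 table per library which, per the file headers, gives for each stranded CpG position its read count (coverage) and, in percent, how many reads showed C or T. Alignment was with Bismark to GRCm38, per the submitters' processing notes. The version is not given in the sources used here. No listed position had under 10 reads or more than 10% of reads from another base. The deposited count and percent values were multiplied to give methylated and unmethylated reads, which came out whole, within rounding, at 100% of positions. A genomic T and a converted C read alike.

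The members and gene lists were chosen with earlier results of these data known. Genes were named from the largest clusters, the genes holding most KO-only positions, the called tiles, gene bodies with the smallest p, and the gene lists. Any other gene was named after its values were seen. Genes and promoter windows came from RefSeq tables for GRCm38.p6. All 15494 listed positions in the 2014 promoter windows of chromosome 1 have C on the listed strand there.

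CpGs, 1 kb tiles (at least 3 CpGs) and gene bodies (at least 5 CpGs, from start to end) with a mean level of 5% to 95% were tested over all chromosomes with a quasi-binomial logistic model. Its dispersion was moderated as in limma 3.58.1, written in Python 3.11.15, numpy 2.4.6 and scipy 1.17.1, and tested on simulated data. A call needed group means at least 10 points apart and a Benjamini-Hochberg adjusted p under 0.05. Intervals from reads would cover counting error only, as PCR copies are not told apart. Alternatives changed the minimum coverage, dispersion, test, level filter, pairing, edges and libraries. Coordinates are 1-based.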

Additional observations from a re-analysis of the deposited data

How the results depend on the processing

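The KO-only count was 327 to 504 under the alternatives run, and 453 to 463 without single libraries. The WT-only count of 21 was 125 with listing in at least 2 libraries, 41 at a minimum of 20 reads, 0 with 20 reads in WT and no listing in KO, and 27 to 77 without single libraries. CpGs higher in KO, 23, became 3 without moderated dispersion and 0 with limma on log2 ratios, without the level filter or with a replicate block, and 13 to 38 without single libraries. CpGs lower in KO, 2, became 0 under those 4 alternatives and 0 to 3 without single libraries. At an unadjusted p under 0.05 there were 294 to 786 CpGs in those 4 fits. These were 7.12% to 9.46% of the CpGs tested in the segment, against 6.49% to 9.45% of all CpGs tested. The highest count came from the fit without the level filter, which tested 8311 CpGs of the segment. Tiles higher in KO, 4, became 0 without moderated dispersion and 0 with limma, and 1 to 6 without single libraries. At an unadjusted p under 0.05 the first 2 of these fits had 70 tiles each, or 10.4%, against 9.18% and 9.40% of all tiles. Tiles lower in KO, 0, became 0 to 1 without single libraries. The cause was not tested. Gene bodies called stayed at 0 under the alternatives run. The mean difference was 0.421 to 1.54 points. Its exact p was 0.7 with pooled reads and 0.2 without single libraries, the smallest that 3 libraries against 2 allow. With a replicate block it was 0.25, the smallest that 3 pairs allow, and the tile count was 6. The deviations of same-numbered KO and WT libraries correlated at -0.0164 to 0.00718, and those of differently numbered ones at -0.0135 to 0.0201. Whether same-numbered libraries share more than a number was not tested. The class intermediate in KO and low in WT held 14 to 20 positions. Positions at 80% in one group and 20% in the other stayed at 0. The settings on that class and on 20 reads in the listing group alone were chosen after seeing the data. Of the values for single named features under alternatives, 243 kept their call or lack of one, 160 kept their direction but not the call, and 0 changed direction. The replicates number 3 per group, and depth near 10 reads limits the WT-only positions.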
